A study of Homo sapiens with 6 samples.

Results

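CCF642 is a small-molecule inhibitor of protein disulfide isomerases, and its effect on the transcriptome of MM1.S cells is described here against the DMSO vehicle. MM1.S is an established human line from multiple myeloma, a malignancy of antibody-secreting plasma cells. The comparison holds 4 of the 6 libraries of the study, chosen by their treatment labels: 2 libraries of cells treated for 6 h with 3 µM CCF642 and 2 libraries of cells treated for 6 h with DMSO, and it covers all 11048 gene symbols listed in each library. All cells were of the same line, grown in the same medium with serum, and the labels name no genetic change. The other 2 libraries came from cells treated for 6 h with 3 µM CCF642-34, an analog of CCF642. The labels do not say whether the 2 libraries of a group came from separate cultures, so the p values measure the spread between these libraries, which may be technical.

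Protein disulfide isomerases form, break and rearrange disulfide bonds in proteins that fold in the endoplasmic reticulum (ER). When unfolded proteins build up there, the unfolded protein response acts through 3 sensors: PERK, which slows translation and favours the translation of ATF4, IRE1, which splices XBP1 mRNA, and ATF6, which is cut to release a transcription factor. Plasma cells secrete large amounts of antibody and depend on this system. Other stress programmes respond to damage elsewhere in the cell, among them the heat shock response of the cytosol, the NRF2 response to oxidants and electrophiles, and the immediate early genes, which are transcribed within minutes of a signal without new protein synthesis.

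The values are CPM, in which the reads of a gene are divided by all reads of the library and multiplied by a constant. The reads behind them could be recovered for the 4 libraries, whose totals lay between 20567313 and 22989979 reads. A difference is given as the log2 fold change of TMM-scaled CPM with 1 added, fitted with limma, which understates changes of genes with few reads. CPM values are given as deposited, before TMM scaling, so a small fold change can differ in sign from the CPM beside it. Replicates differed little, with a median SD of 0.0408 with DMSO and 0.0567 with CCF642 on this log2 scale over 9390 genes. The cells carried the markers of their line: IRF4 was at 682 and 657 CPM, SDC1 (CD138) at 869.8 and 850.5 CPM, XBP1 at 1368 and 1358 CPM and PRDM1 at 404 and 402 CPM with DMSO. Of 8 markers written for each other cell type, 1 was listed for T cells, 1 for monocytes, 4 for stromal and epithelial cells and 3 for B cells. CD3D, CD14 and COL1A2 were not among the listed genes, and CD3E, at 2.22 and 2.57 CPM with DMSO and 2.09 and 3.19 CPM with CCF642, and CD68, at 13.4 and 12.7 CPM with DMSO and 9.87 and 10.1 CPM with CCF642, passed in neither direction. In all, 6974 genes (63.1% of those tested) had a limma adjusted p under 0.05, most of them with small changes, since their median absolute log2 fold change was 0.446. A change of at least 2-fold with an unadjusted p under 0.05 was met by 717 genes (6.49%), 497 higher (4.5%) and 220 lower (1.99%) with CCF642. With scaling by library size alone in place of TMM, the median over all genes was a log2 fold change of −0.131 in place of −0.0068, and the 2-fold calls were 378 higher and 348 lower. By the adjusted p alone the split was 3515 higher (31.8%) and 3459 lower (31.3%) with TMM and 2528 higher and 4738 lower with library size alone, so the sign of differences smaller than this shift rests on the scaling.

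Promoter sequences of 7 genes are shown first, because 5 of the groups described below (heat shock factor targets, ER chaperones, mitotic genes, NRF2 genes and immediate early factors) are known for elements that their transcription factors read. They were chosen with their values known. Each changed at least 2-fold, which many other list members with these elements did not. Each is the stretch of 150 bases before the start of a RefSeq transcript (GRCh38.p14), written 5′ to 3′ on the strand of the gene, with the match in capitals. Of the listed genes, 9168 matched a promoter in RefSeq. Windows of 250 bases before and 50 after each start were searched on both strands, and a gene was counted if any of its windows held the letters. The first pair holds the heat shock element, the second kind is the ER stress response element, then come the cell cycle homology region, an antioxidant response element and a cyclic AMP response element.
CHORDC1: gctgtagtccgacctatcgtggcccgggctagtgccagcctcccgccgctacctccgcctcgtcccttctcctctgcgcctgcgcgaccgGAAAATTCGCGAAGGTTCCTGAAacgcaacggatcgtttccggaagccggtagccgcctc
SERPINH1: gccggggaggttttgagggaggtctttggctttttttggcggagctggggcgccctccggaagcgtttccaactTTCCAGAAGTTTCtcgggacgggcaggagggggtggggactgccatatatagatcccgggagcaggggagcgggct
HSPA5: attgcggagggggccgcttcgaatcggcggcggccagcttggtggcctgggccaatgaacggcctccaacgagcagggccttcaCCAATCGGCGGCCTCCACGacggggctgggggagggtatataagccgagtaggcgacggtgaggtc
PLK1: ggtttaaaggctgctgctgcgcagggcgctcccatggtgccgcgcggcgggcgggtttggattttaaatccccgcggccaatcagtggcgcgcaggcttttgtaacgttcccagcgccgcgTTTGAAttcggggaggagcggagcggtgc
CCNF: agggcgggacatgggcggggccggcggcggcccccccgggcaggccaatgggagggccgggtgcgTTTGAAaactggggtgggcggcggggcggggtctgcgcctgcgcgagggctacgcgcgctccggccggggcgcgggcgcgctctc
SLC3A2: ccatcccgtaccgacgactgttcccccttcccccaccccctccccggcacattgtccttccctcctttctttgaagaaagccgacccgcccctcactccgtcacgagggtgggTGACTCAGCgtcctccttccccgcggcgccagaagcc
MAFF: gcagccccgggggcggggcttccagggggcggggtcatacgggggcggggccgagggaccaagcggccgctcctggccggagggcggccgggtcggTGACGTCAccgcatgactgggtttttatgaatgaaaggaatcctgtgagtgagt

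These windows are chr11:90223050-90223199 (- strand) for CHORDC1, chr11:75562103-75562252 (+ strand) for SERPINH1, chr9:125241344-125241493 (- strand) for HSPA5, chr16:23678739-23678888 (+ strand) for PLK1, chr16:2429297-2429446 (+ strand) for CCNF, chr11:62881549-62881698 (+ strand) for SLC3A2 and chr22:38201844-38201993 (+ strand) for MAFF. The heat shock element, searched as GAA, any 2 bases, TTC, any 2 bases and GAA, was in the promoters of 8 of 21 heat shock factor targets (38.1%), against 0.608% of all 27305 genes with a promoter. The ER stress response element, searched as CCAAT, any 9 bases and CCACG, was found for 5 of 16 ER chaperones (31.2%, against 0.0916% of all). The cell cycle homology region TTTGAA was in those of 20 of 26 mitotic genes (76.9%), against 18.2% of all. The antioxidant response element TGACNNNGC was found for 7 of 20 NRF2 genes (35.0%, against 16.1%). The cyclic AMP response element TGACGTCA was found for 2 of 17 immediate early transcription factors (11.8%, against 2.25%). TGATGNAAT, an element read by heterodimers of ATF4 and C/EBP factors, was in 0 of 16 windows of the PERK-ATF4 genes and in 1.22% of all, which says only that these letters are not in these windows. Among the 408 genes that were at least 2-fold higher and had a promoter, the 180 that were at least 2-fold lower and all listed genes, the cyclic AMP element was held by 6.37%, 0.556% and 3.93%, in that order. The shares were 2.21%, 0.556% and 0.731% for TGATGNAAT, 0.98%, 0.556% and 0.425% for the heat shock element and 0.735%, 0% and 0.175% for the ER stress element. They were 16.7%, 21.7% and 14% for the cell cycle region and 25.7%, 21.7% and 19.8% for the antioxidant element. The heat shock element and the cell cycle homology region share the letters GAA and can overlap. A match is a description of the sequence, not evidence that a factor was bound.

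Most of the larger changes were of genes outside the ER stress lists, which hold few of the listed genes. Of the 717 genes that changed at least 2-fold, 21 (2.93%) were members of the 5 lists on the PERK-ATF4 response, ER sensors, ER chaperones, disulfide isomerases and ER-associated degradation, 140 (19.5%) were in other lists and 556 (77.5%) were in none. These 5 lists hold 78 of the 11048 genes, and their own share of changes of at least 2-fold, 21 of 78 genes, was above the 6.49% of all genes. The lists were written by hand and are not complete, so a gene outside them can still belong to the ER stress response. Genes were also divided by the mean CPM of the 4 libraries into 2597 genes under 10 CPM, 5922 genes of 10 to under 100 CPM and 2529 genes of 100 CPM or more. This mean includes the CCF642 libraries, so an increase itself lifts a gene towards a higher tier and a decrease moves it towards a lower one. The balance of higher and lower genes in each tier is thus partly set by the rule. Changes of at least 2-fold were 108 higher (4.16%) and 79 lower (3.04%) in the low tier, 213 higher (3.6%) and 116 lower (1.96%) in the middle tier, and 176 higher (6.96%) and 25 lower (0.989%) in the high tier. The tiers held 1.2%, 26.2% and 72.6% of the CPM of the listed genes with DMSO and 1.04%, 24.4% and 74.5% with CCF642. With library size alone the balance turned in both lower tiers, to 87 higher and 117 lower in the low tier and 154 higher and 197 lower in the middle tier, while the high tier had 137 higher and 34 lower. The low tier also depended on how few reads were treated, since with edgeR's quasi-likelihood test, run on recovered reads, 206 genes were higher and 226 lower there.

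**Figure D1:**
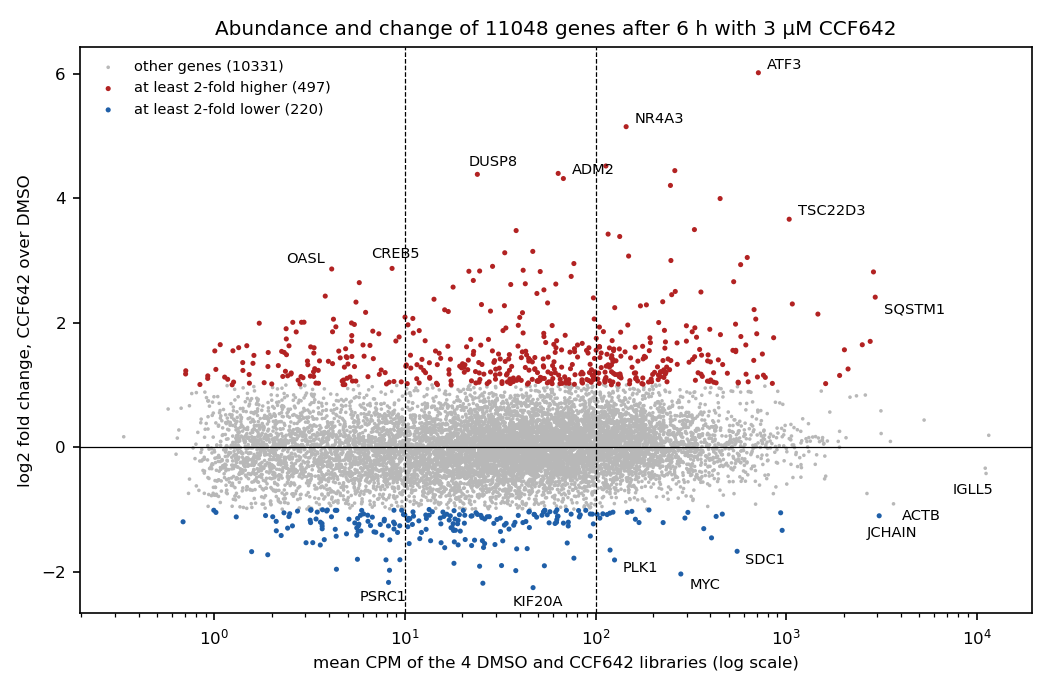
Each point is a gene, placed by the mean CPM of the 4 libraries on a log scale and by its log2 fold change of CCF642 over DMSO, with dashed lines at 10 and 100 CPM. Red points are the 497 genes that were at least 2-fold higher, blue points the 220 that were at least 2-fold lower and grey points all others. Most of the largest increases lie above 10 CPM, on a mean that these increases themselves raise.

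Among the genes of the high tier outside the ER stress lists, the largest increases were those of the NR4A orphan nuclear receptors, transcription factors that are induced as immediate early genes. NR4A3 was at 8.48 and 6.96 CPM with DMSO and 268 and 295 CPM with CCF642 (log2 fold change 5.15, SE 0.073, limma adjusted p = 1.41e-45). NR4A2 was at 11.2 and 7.85 CPM with DMSO and 216 and 218 CPM with CCF642 (4.51), and NR4A1, which is the best known of the family in lymphocytes, was at 56.5 and 57.8 CPM with DMSO and 854 and 832 CPM with CCF642 (3.99). For each receptor both CCF642 libraries were far above both DMSO libraries. These receptors, and SAT1 below, were each under 100 CPM with DMSO and reached this tier through their CCF642 libraries. TSC22D3, which encodes the glucocorticoid-induced leucine zipper GILZ, was at 167 and 162 CPM with DMSO and 1944 and 1874 CPM with CCF642 (3.66). SAT1, the rate-limiting enzyme of polyamine catabolism, was at 57.9 and 57.4 CPM with DMSO and 624 and 580.1 CPM with CCF642 (3.49). The decreases in this tier included a transcription factor of growth, mitotic genes and surface proteins. MYC, a driver of growth and ribosome production, was at 452 and 465 CPM with DMSO and 99.4 and 103 CPM with CCF642 (log2 fold change −2.04, SE 0.045, limma adjusted p = 2.33e-37). PLK1, a kinase needed to enter and complete mitosis, was at 198 and 202 CPM with DMSO and 45.9 and 57.2 CPM with CCF642 (−1.81), and TOP2A, which untangles replicated DNA, was at 622 and 597 CPM with DMSO and 191 and 213 CPM with CCF642 (−1.46). The plasma cell proteoglycan SDC1 was at 869.8 and 850.5 CPM with DMSO and 239 and 252 CPM with CCF642 (−1.67), and the chemokine receptor CCR1 was at 184 and 186 CPM with DMSO and 53.8 and 52.3 CPM with CCF642 (−1.65). Genes were named in each tier only if the 2 groups did not overlap, which was so for 81.7% of all genes. In these bulk libraries, fewer cells of a type and less RNA per cell cannot be told apart.

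In the middle tier the largest increase was that of DUSP8, a phosphatase that inactivates JNK and p38 MAP kinases, at 1.48 and 1.4 CPM with DMSO and 43.2 and 49.8 CPM with CCF642 (log2 fold change 4.38, SE 0.11, limma adjusted p = 6.43e-35). ADM2, a peptide hormone of the calcitonin family, was at 5.35 and 7.01 CPM with DMSO and 134 and 125 CPM with CCF642 (4.31). RND3, an atypical small GTPase that loosens actin fibres, was at 8.87 and 10.2 CPM with DMSO and 83.8 and 84.4 CPM with CCF642 (3.14), and SEMA7A, a membrane-anchored semaphorin, was at 19.1 and 17.6 CPM with DMSO and 137 and 134 CPM with CCF642 (2.95). CTH, which makes cysteine from cystathionine, was at 6.7 and 6.59 CPM with DMSO and 60.6 and 59.5 CPM with CCF642 (3.12). Of these 5 genes DUSP8 had the lowest CPM with DMSO and SEMA7A the highest. KIF20A, a kinesin of cytokinesis, was at 80.6 and 78.5 CPM with DMSO and 14.1 and 14.8 CPM with CCF642 (log2 fold change −2.26, SE 0.085, limma adjusted p = 1.1e-27). This was the largest decrease of all listed genes by the fitted log2 fold change. By the ratio of mean CPM, without 1 added, SLC40A1 and PSRC1 of the low tier fell by more. FAM83D, a spindle protein, was at 43 and 37.4 CPM with DMSO and 8.99 and 9.03 CPM with CCF642 (−1.91). FAM78A was at 41.8 and 44.8 CPM with DMSO and 7.92 and 7.92 CPM with CCF642 (−2.19) and TMCC2 at 60.5 and 64.6 CPM with DMSO and 13.4 and 14 CPM with CCF642 (−1.98). CXXC4, an inhibitor of Wnt signalling, was at 83.7 and 90.6 CPM with DMSO and 19.4 and 21.6 CPM with CCF642 (−1.90).

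The genes with few reads that changed most included signalling and transcription factors that were nearly silent with DMSO. CREB5, a transcription factor of the ATF/CREB family, had 28 and 36 reads with DMSO and 316 and 360 reads with CCF642, or 1.22 and 1.68 CPM with DMSO and 15.4 and 15.9 CPM with CCF642 (log2 fold change 2.87, SE 0.14, limma adjusted p = 1.26e-22). OASL, an interferon-stimulated gene, had 8 and 5 reads with DMSO and 177 and 165 reads with CCF642 (2.86), and its mean CPM was 27.4 times that with DMSO, more than the fitted log2 fold change conveys. SOCS3, which restrains cytokine signalling through JAK kinases, was at 0.783 and 1.17 CPM with DMSO and 10.3 and 10.8 CPM with CCF642 (2.64). MSC, a basic helix-loop-helix repressor known from activated B cells, was at 0.435 and 0.701 CPM with DMSO and 8.36 and 5.75 CPM with CCF642 (2.43). COL1A1, a fibrillar collagen chain, was at 1.09 and 1.5 CPM with DMSO and 8.99 and 10.5 CPM with CCF642 (2.33). It is also a marker of stromal cells. Of the other stromal and epithelial markers listed, KRT8 was lower (−1.01), EPCAM (0.20) and PECAM1 (−0.44) passed in neither direction, and the CPM of all 4 summed to 6.481 and 7.055 with DMSO and to 12.54 and 13.19 with CCF642. The part of other cells in this result was not tested. Genes that sat under 1 CPM with DMSO were listed only where another library had at least 1.5 CPM, so such genes had to differ somewhere. Of the low decreases, PSRC1, a microtubule-binding protein of the spindle, had 339 and 294 reads with DMSO and 50 and 42 reads with CCF642 (−2.17). WWTR1 (TAZ), a coactivator of the Hippo pathway, was at 13.1 and 15 CPM with DMSO and 2.63 and 2.43 CPM with CCF642 (−1.98), and the iron exporter SLC40A1 (ferroportin) at 6.57 and 8.74 CPM with DMSO and 1.31 and 0.841 CPM with CCF642 (−1.96). ITPRIPL1 was at 13.2 and 13.1 CPM with DMSO and 2.72 and 2.74 CPM with CCF642 (−1.81) and the chemokine receptor CCR2 at 15.3 and 15.5 CPM with DMSO and 2.87 and 3.85 CPM with CCF642 (−1.81).

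**Figure D2:**
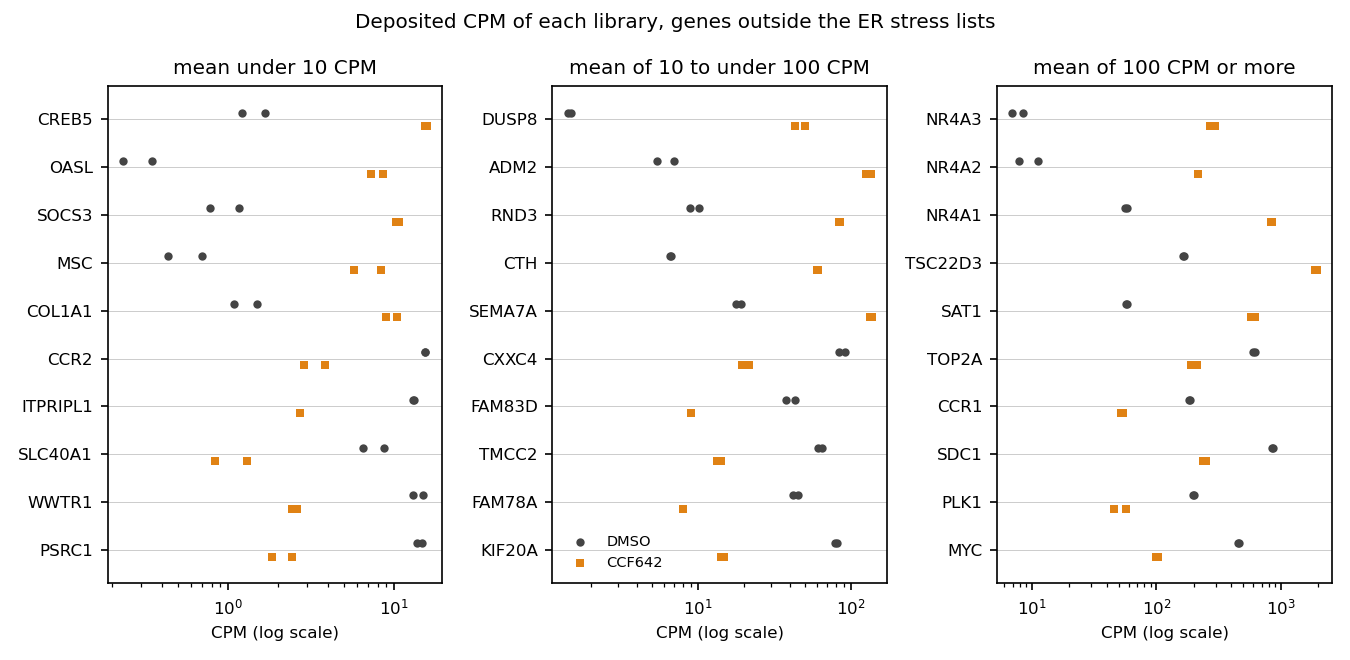
Deposited CPM of every library on log axes for the genes outside the ER stress lists with the largest changes in each abundance tier, with DMSO libraries as grey circles and CCF642 libraries as orange squares. The 30 genes were picked only from those whose DMSO and CCF642 libraries do not overlap, and NR4A3 moves from under 10 CPM to over 100 CPM.

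Genes were also ranked by the change in mean CPM rather than in fold, and SQSTM1, HERPUD1, FTL and DUSP5 were among the largest gains. SQSTM1 (p62), the receptor that carries ubiquitinated proteins to autophagosomes, was at 997 and 1011 CPM with DMSO and 4948 and 4777 CPM with CCF642 (log2 fold change 2.41, SE 0.034, limma adjusted p = 1.24e-45), and HERPUD1, a cofactor of ER-associated degradation, at 1395 and 1393 CPM with DMSO and 4210 and 4042 CPM with CCF642 (1.70). FTL, the light chain of the iron store ferritin, was at 1278 and 1328 CPM with DMSO and 3687 and 3740 CPM with CCF642 (1.64), and DUSP5, a nuclear ERK phosphatase, at 1090 and 1098 CPM with DMSO and 2945 and 2951 CPM with CCF642 (1.56). The largest losses came from genes of the plasma cell and of the actin cytoskeleton. IGLL5, which lies in the immunoglobulin lambda locus and may receive reads of light chain transcripts, was at 13270 and 13380 CPM with DMSO and 9039 and 9083 CPM with CCF642 (−0.42). ITGB7, an integrin chain that is abundant in myeloma cells carrying MAF, was at 12790 and 12970 CPM with DMSO and 9287 and 9284 CPM with CCF642 (−0.34). JCHAIN, the joining chain of polymeric antibodies, was at 4321 and 4316 CPM with DMSO and 1792 and 1875 CPM with CCF642 (−1.10). ACTB and ACTG1, the cytoplasmic actins, were at 4899 and 4950 CPM with DMSO and 2278 and 2503 CPM with CCF642 (−0.91) and at 3438 and 3439 CPM with DMSO and 1820 and 1922 CPM with CCF642 (−0.74). UBB, the actins, tubulins, ferritin chains, histones, ribosomal proteins, HSPA6 and HSPA1B have near-identical copies or pseudogenes in the genome, so the share of reads assigned to each is uncertain.

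**Figure D3:**
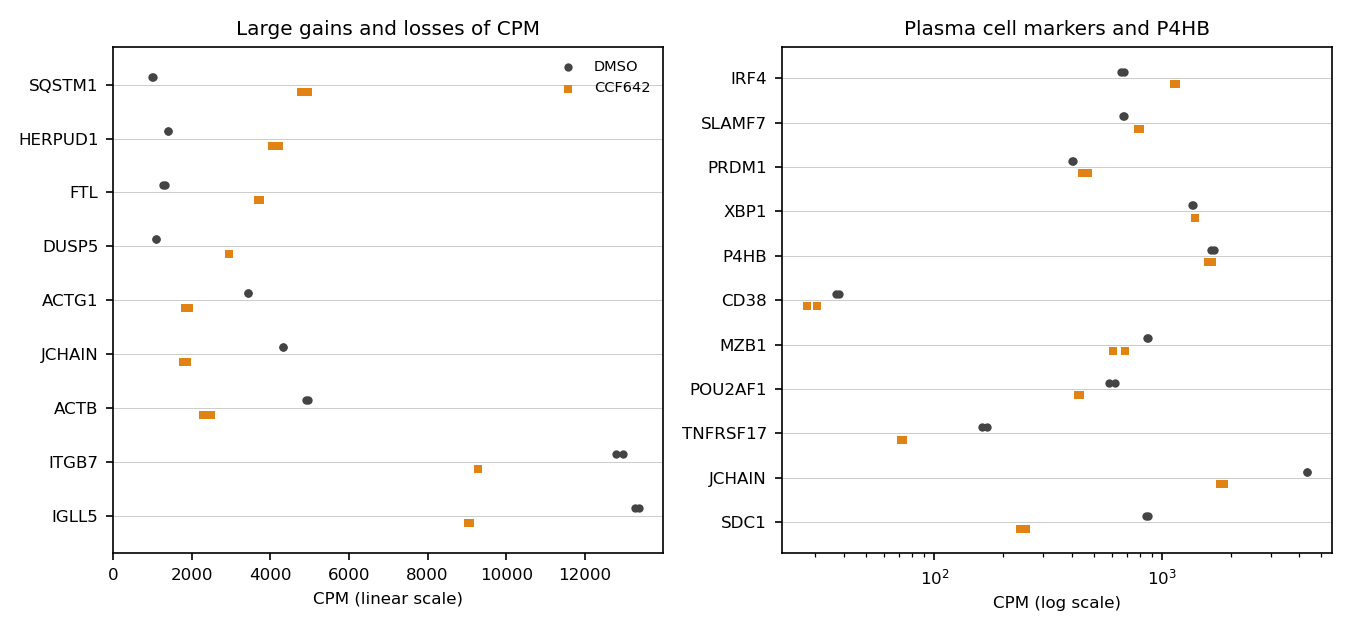
Deposited CPM of every library for genes with large gains and large losses of mean CPM (left, linear axis) and for plasma cell markers and P4HB (right, log axis), with DMSO libraries as grey circles and CCF642 libraries as orange squares. SQSTM1 and HERPUD1 rise severalfold, IGLL5 and ITGB7 remain the most abundant of these genes despite their losses, and SDC1 falls far while P4HB stays near its DMSO level.

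The ER stress genes are given in brief. Of 18 listed genes of the PERK-ATF4 response, 16 were higher (31.8% of all genes were) and 1 was lower (31.3% of all), with a median log2 fold change of 1.84 against −0.0068 over all genes. SESN2, a stress-induced inhibitor of mTORC1, was at 23.5 and 24.7 CPM with DMSO and 493 and 500 CPM with CCF642 (4.44), second to ATF3 at 22.8 and 22.9 CPM with DMSO and 1432 and 1380 CPM with CCF642 (6.01). ERO1A, an oxidase of disulfide isomerases, was at 99 and 109.6 CPM with DMSO and 62 and 73.5 CPM with CCF642 (−0.49) and was the 1 member that fell. Of 11 ER sensors and their transcription factors, 7 were higher and 3 lower, and ERN1, which encodes IRE1, was at 319.5 and 319 CPM with DMSO and 661 and 665 CPM with CCF642 (1.19) while the protease gene MBTPS2 was at 39.5 and 42.1 CPM with DMSO and 20.7 and 21.6 CPM with CCF642 (−0.79). Of 16 ER chaperones, 10 were higher and 1 lower (9 and 3 with library size alone), with a median of 0.28, led by DNAJB9 at 186 and 176 CPM with DMSO and 632 and 596 CPM with CCF642 (1.89) and HSPA5 (BiP) at 1331 and 1328 CPM with DMSO and 2854 and 2934 CPM with CCF642 (1.26). The ER-associated degradation list had 10 of 18 members higher and 5 lower (9 and 7 with library size alone), the latter led by the ubiquitin-conjugating enzyme UBE2G2 at 223 and 218 CPM with DMSO and 127 and 129.6 CPM with CCF642 (−0.65). The gene family of the drug's target went both ways with TMM: of 16 disulfide isomerase genes and oxidases 4 were higher and 6 lower with TMM and 1 was higher and 10 lower with library size alone, with a median of −0.086 and −0.218. With TMM these are 25.0% and 37.5%, against 31.8% and 31.3% of all genes, and the changes ranged from −0.67 to 1.03. P4HB, the founding isomerase PDI, was at 1640 and 1690 CPM with DMSO and 1594 and 1656 CPM with CCF642 (log2 fold change 0.10, SE 0.035, limma adjusted p = 0.0118), and its sign turned to −0.035 with scaling by library size alone. TXNDC5 was at 67.4 and 83.7 CPM with DMSO and 39.7 and 46 CPM with CCF642 (−0.67) and the oxidase ERO1B at 10 and 9.77 CPM with DMSO and 20.1 and 18.6 CPM with CCF642 (1.03).

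Most listed heat shock factor targets and antioxidant genes were higher. Of 23 listed heat shock factor targets, 21 were higher and 1 lower, with a median log2 fold change of 0.82. BAG3, which couples HSP70 to autophagy of misfolded proteins, was at 131 and 133 CPM with DMSO and 467 and 468 CPM with CCF642 (1.95), and the HSP70 cofactor DNAJB4 at 37 and 33.9 CPM with DMSO and 99.9 and 94.4 CPM with CCF642 (1.56). SERPINH1, a collagen chaperone, was at 9.83 and 10.9 CPM with DMSO and 23.8 and 23.5 CPM with CCF642 (1.24) and the HSP90 cochaperone CHORDC1 at 81.8 and 80.6 CPM with DMSO and 159 and 153 CPM with CCF642 (1.07). Both have the heat shock element shown above. HSF2 was the 1 member that fell, at 38.2 and 33.4 CPM with DMSO and 28.2 and 27.4 CPM with CCF642 (−0.22). HSPA6, a stress-inducible HSP70 gene in no list, was at 254 and 265 CPM with DMSO and 1147 and 1048 CPM with CCF642 (2.21). Of 27 listed NRF2 and thiol antioxidant genes, 22 were higher and 4 lower (median 0.96). HMOX1, which degrades haem, was at 58.7 and 59.7 CPM with DMSO and 446 and 429 CPM with CCF642 (3.00), and the cystine carrier SLC7A11 was at 27.5 and 22 CPM with DMSO and 247 and 238 CPM with CCF642 (3.38). NFE2L2, which encodes NRF2, was at 78.9 and 74.8 CPM with DMSO and 190.3 and 199 CPM with CCF642 (1.46). Its small MAF partners did not move together, since MAFF was at 16 and 16.8 CPM with DMSO and 92.4 and 89 CPM with CCF642 (2.53) and MAFK at 33.9 and 33.1 CPM with DMSO and 22.5 and 19.2 CPM with CCF642 (−0.54). PRDX1, an abundant peroxidase of this list, was at 410.5 and 426 CPM with DMSO and 276 and 266 CPM with CCF642 (−0.49). Of 12 metal-handling genes, 8 were higher and 2 lower, with the transferrin receptor TFRC at 223 and 215 CPM with DMSO and 569 and 550 CPM with CCF642 (1.48) and the zinc exporter SLC30A1 at 133 and 132 CPM with DMSO and 253 and 265 CPM with CCF642 (1.09). SLC39A10, a zinc importer, was at 26.9 and 23.4 CPM with DMSO and 11 and 11.9 CPM with CCF642 (−0.94). The exporter of zinc was thus higher and this importer lower. MT2A, a metallothionein, was at 0.652 and 0.888 CPM with DMSO and 0.875 and 1.28 CPM with CCF642 and passed in neither direction.

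Immediate early factors had the highest median change, and most of the listed feedback genes were higher by less. Of 20 listed immediate early transcription factors, 17 were higher and 3 lower, with a median log2 fold change of 2.22, the highest of the lists with at least 5 listed genes. FOSL2 was at 32.8 and 34.5 CPM with DMSO and 269 and 259.6 CPM with CCF642 (3.07), JUN at 144 and 148 CPM with DMSO and 1105 and 1102 CPM with CCF642 (3.05) and FOS at 6.18 and 5.42 CPM with DMSO and 39.9 and 47 CPM with CCF642 (2.83), which together form the AP-1 factors. EGR1, a zinc finger factor of growth signals, was at 1.35 and 1.17 CPM with DMSO and 5.54 and 5.27 CPM with CCF642 (1.60). MYC was lower, as given above, and SRF, which itself drives many immediate early genes, was at 97.6 and 92.2 CPM with DMSO and 41.5 and 47.3 CPM with CCF642 (−0.95). Of 13 MAP kinase phosphatases and Sprouty genes, 9 were higher and 4 lower (median 0.90). DUSP10, which also targets JNK and p38, was at 3.22 and 5.42 CPM with DMSO and 26.9 and 21.2 CPM with CCF642 (2.38) and the ERK phosphatase DUSP7 at 28.6 and 31.1 CPM with DMSO and 10.6 and 11.6 CPM with CCF642 (−1.22), with SPRY1, an inhibitor of receptor tyrosine kinase signalling, at 3.17 and 3.22 CPM with DMSO and 0.584 and 1.11 CPM with CCF642 (−1.12). Both of these ERK-directed genes were lower, whereas DUSP5 was higher. Of 18 NF-kB subunits, inhibitors and targets, 14 were higher and 1 lower (median 0.81), with REL at 5.79 and 5.98 CPM with DMSO and 24.6 and 31.1 CPM with CCF642 (2.18) and the chemokine CCL3 at 586 and 585 CPM with DMSO and 2419 and 2280 CPM with CCF642 (2.14). The inhibitor NFKBIA was at 16.8 and 16.6 CPM with DMSO and 63.7 and 60.1 CPM with CCF642 (1.96), whereas TNFAIP3, the deubiquitinase A20, was at 292 and 282 CPM with DMSO and 268 and 275 CPM with CCF642 and passed in neither direction. Of 21 mRNA decay factors, 14 were higher and 3 lower (median 0.20; 10 and 5 with library size alone), led by ZFP36 at 104 and 106 CPM with DMSO and 359 and 349 CPM with CCF642 (1.88) and ZFP36L1 at 51.9 and 49.2 CPM with DMSO and 164 and 175 CPM with CCF642 (1.86), which bind AU-rich elements of short-lived mRNAs.

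**Figure D4:**
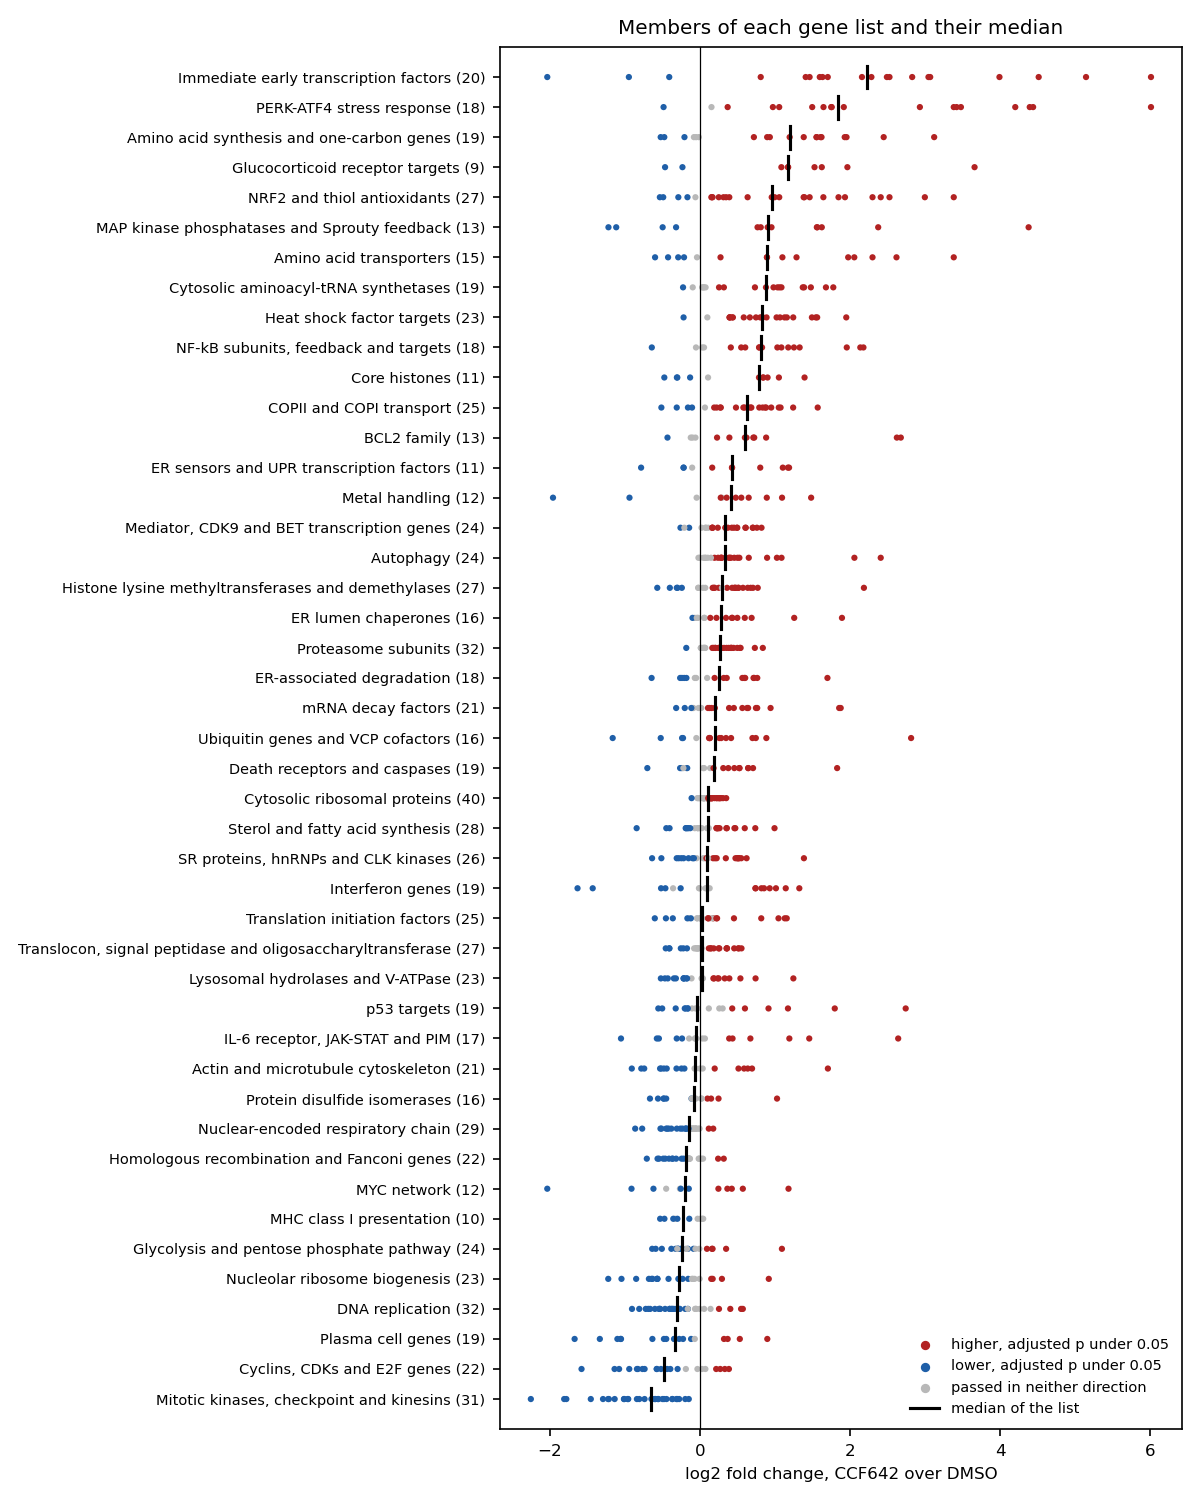
Every listed member of each gene list with at least 5 listed genes, placed by its log2 fold change of CCF642 over DMSO, with red for higher and blue for lower genes that passed the test (limma, adjusted p under 0.05), grey for the rest and a black bar at the median. Immediate early factors have the highest median (2.22) and mitotic genes the lowest (−0.65), and most lists hold members on either side of 0.

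Several hormone and cytokine feedback genes were also higher. Of 9 listed glucocorticoid receptor targets, counting NR3C1, which encodes the receptor, 7 were higher and 2 lower, with a median of 1.18. Each of the 7 was at least 2-fold higher, and KLF9 followed TSC22D3 at 3.35 and 4.58 CPM with DMSO and 16.3 and 17.2 CPM with CCF642 (1.96), but FKBP5, a widely used target gene of the receptor, was lower at 91.3 and 87 CPM with DMSO and 59.4 and 57.7 CPM with CCF642 (−0.47). TXNIP was at 89.9 and 87.6 CPM with DMSO and 70.9 and 66.3 CPM with CCF642 (−0.23). DUSP1 and BIRC3 of this list are also targets of other signals. Of 17 genes of IL-6 and JAK-STAT signalling, 6 were higher and 5 lower (35.3% and 29.4%, close to the 31.8% and 31.3% of all genes), which turned to 5 and 7 with library size alone. SOCS1 was at 2.26 and 2.8 CPM with DMSO and 8.46 and 7.52 CPM with CCF642 (1.46), while the kinase PIM2, a survival factor of myeloma cells, was at 1314 and 1286 CPM with DMSO and 599 and 543 CPM with CCF642 (−1.05) and STAT5B at 44.9 and 47 CPM with DMSO and 28.9 and 26.7 CPM with CCF642 (−0.58). The feedback inhibitors SOCS1 and SOCS3 were thus both higher. Interferon genes went both ways, with 8 of 19 higher and 5 lower (42.1% and 26.3%, against 31.8% and 31.3% of all genes). IFI44 was at 1.26 and 1.64 CPM with DMSO and 4.81 and 4.65 CPM with CCF642 (1.32) and ISG20 at 88.8 and 89.1 CPM with DMSO and 197 and 165 CPM with CCF642 (1.14). The guanylate-binding proteins GBP1 and GBP4 were at 57.6 and 62.4 CPM with DMSO and 18.5 and 15.5 CPM with CCF642 (−1.63) and at 6.35 and 7.57 CPM with DMSO and 1.85 and 1.64 CPM with CCF642 (−1.43). The sign of this list's median turned with the scaling, from 0.091 to −0.043 with library size alone. Of 10 MHC class I presentation genes, 0 were higher and 5 lower (0 and 9 with library size alone), with ERAP2, a trimming peptidase, at 164 and 144 CPM with DMSO and 96.5 and 96.9 CPM with CCF642 (−0.53) and the regulator NLRC5 at 17.2 and 17.6 CPM with DMSO and 11.4 and 10.9 CPM with CCF642 (−0.47). Limma's adjusted p under 0.05, over all 11048 genes, defines higher and lower for every list here. The count of each list is to be read beside the 31.8% and 31.3% of all genes.

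Most listed BCL2 family genes were higher, and death receptor and caspase genes changed less as a group. Of 13 BCL2 family genes, 9 were higher and 1 lower (8 and 4 with library size alone), with a median of 0.60. PMAIP1 (NOXA) was at 5.92 and 5.93 CPM with DMSO and 40.6 and 38.8 CPM with CCF642 (log2 fold change 2.68, SE 0.1, limma adjusted p = 1.6e-27) and BBC3 (PUMA) at 11.7 and 12.6 CPM with DMSO and 74.6 and 72 CPM with CCF642 (2.62), both of which are BH3-only proteins that promote apoptosis. BCL2L1, which encodes the protective BCL-XL, was the 1 that was lower with TMM, at 186 and 172 CPM with DMSO and 126 and 116 CPM with CCF642 (−0.43). MCL1, the survival protein on which myeloma cells depend, was at 754 and 732 CPM with DMSO and 1132 and 1084 CPM with CCF642 (0.71), so a protective member was higher as well. Of 19 death receptor and caspase genes, 10 were higher and 4 lower (9 and 5 with library size alone). Their median was 0.18, and 0.049 with library size alone. Only 1 was at least 2-fold higher, the TRAIL receptor TNFRSF10B (DR5), at 23.4 and 25.8 CPM with DMSO and 87.4 and 77.1 CPM with CCF642 (1.83). Its adaptor FADD was at 31.3 and 33 CPM with DMSO and 49.2 and 47.7 CPM with CCF642 (0.71). CASP6 was at 24 and 22.7 CPM with DMSO and 13.9 and 11.6 CPM with CCF642 (−0.70). CFLAR, an inhibitor of caspase-8, was at 218 and 208 CPM with DMSO and 165 and 157 CPM with CCF642 (−0.27). Of 19 p53 targets, 6 were higher (31.6%) and 7 lower (36.8%), close to the 31.8% and 31.3% of all genes. CDKN1A (p21), an inhibitor of cyclin-dependent kinases, was at 20.8 and 19.6 CPM with DMSO and 134 and 123 CPM with CCF642 (2.74) and GADD45A at 31.5 and 33.9 CPM with DMSO and 109 and 102 CPM with CCF642 (1.80). ZMAT3 and TP53INP1, both widely used p53 targets, were lower at 5.92 and 4.86 CPM with DMSO and 2.63 and 3.45 CPM with CCF642 (−0.56) and at 517 and 504 CPM with DMSO and 334 and 322 CPM with CCF642 (−0.50).

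Genes of mitosis were lower without exception among those written. All 31 listed mitotic kinases, checkpoint genes and kinesins were lower (31.3% of all genes were), 10 of them at least 2-fold, with a median log2 fold change of −0.65 and a range of −2.26 to −0.15. CCNF, a cyclin of the F-box family, was at 124 and 119.9 CPM with DMSO and 31.8 and 31.6 CPM with CCF642 (−1.78), next to KIF20A and PLK1 given above. AURKA, the spindle pole kinase, was at 90.7 and 86.5 CPM with DMSO and 33.6 and 34.3 CPM with CCF642 (−1.23) and CENPA, the histone of the centromere, at 26.8 and 25.6 CPM with DMSO and 8.22 and 10.2 CPM with CCF642 (−1.29). The spread within the list was wide: AURKB, the partner kinase at the centromere, was at 99.1 and 105 CPM with DMSO and 73 and 70.3 CPM with CCF642 (−0.37) and CDC20, the activator of the anaphase-promoting complex, at 136 and 136 CPM with DMSO and 92.3 and 89.8 CPM with CCF642 (−0.45). Of 22 cyclins, CDKs and E2F genes, 14 were lower and 4 higher (median −0.48). CCNE1, the cyclin of entry into S phase, was at 33.9 and 35.4 CPM with DMSO and 11.6 and 8.5 CPM with CCF642 (−1.58), CCNB1 at 150.5 and 148 CPM with DMSO and 60.7 and 61.9 CPM with CCF642 (−1.14) and CCND2, the D-type cyclin that prevails in these cells, at 554 and 557 CPM with DMSO and 675 and 648 CPM with CCF642 (0.38). Of 32 DNA replication genes, 21 were lower and 4 higher (median −0.30), with PCNA at 128 and 128 CPM with DMSO and 64.4 and 59 CPM with CCF642 (−0.91) and GINS1 at 36.1 and 38.2 CPM with DMSO and 19 and 18.8 CPM with CCF642 (−0.81). The 4 that were higher were CDC6, ORC1 and CDT1, which load the replicative helicase, and its subunit MCM6, with CDC6 at 105 and 102 CPM with DMSO and 143 and 138 CPM with CCF642 (0.57) and ORC1 at 81.7 and 74.5 CPM with DMSO and 104 and 105 CPM with CCF642 (0.55). The other 5 MCM subunits of that helicase were lower, with MCM2 at 372 and 365 CPM with DMSO and 202 and 204 CPM with CCF642 (−0.72). Of 22 genes of homologous recombination and the Fanconi pathway, 12 were lower and 2 higher (17 and 0 with library size alone), with FANCL at 19.8 and 19.2 CPM with DMSO and 11.4 and 9.65 CPM with CCF642 (−0.71).

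Genes of ribosome production and of amino acid supply went in different directions. In the MYC network, 5 of 12 listed genes were higher and 5 lower (41.7% each, against 31.8% and 31.3% of all genes). The former were led by the MAX-binding repressors MXD1 at 38.1 and 37.6 CPM with DMSO and 80.3 and 78.3 CPM with CCF642 (1.18) and MNT at 37.6 and 41.6 CPM with DMSO and 57.6 and 50.6 CPM with CCF642 (0.57). The latter included MXD3 at 55.8 and 56.8 CPM with DMSO and 29.7 and 24.2 CPM with CCF642 (−0.91). Of 23 nucleolar ribosome biogenesis genes, 15 were lower and 4 higher (19 and 2 with library size alone), with a median of −0.28, with RRS1 at 40.6 and 44.3 CPM with DMSO and 16.5 and 15.5 CPM with CCF642 (−1.22), UBTF, which activates RNA polymerase I, at 208 and 200.3 CPM with DMSO and 91.4 and 87.6 CPM with CCF642 (−1.05) and RRP12 at 121 and 124 CPM with DMSO and 206 and 217 CPM with CCF642 (0.92). Cytosolic ribosomal proteins moved little and their direction depended on the scaling. With TMM 25 of 40 were higher and 1 lower (median 0.109), with library size alone 8 were higher and 10 lower (median −0.025), and no member changed by 2-fold. Of 25 translation initiation factors, 10 were higher and 5 lower with TMM and 5 higher and 10 lower with library size alone, with EIF1 at 500.3 and 501 CPM with DMSO and 1062 and 976 CPM with CCF642 (1.16), the cap-binding inhibitor EIF4EBP1 at 45.9 and 45.2 CPM with DMSO and 96.5 and 87.6 CPM with CCF642 (1.13) and its relative EIF4EBP2 at 192 and 184 CPM with DMSO and 108 and 117 CPM with CCF642 (−0.60). The median of this list was 0.025 and was −0.108 with library size alone.

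Of 19 cytosolic aminoacyl-tRNA synthetases, which charge tRNAs with their amino acids, 13 were higher and 1 lower (median 0.88). GARS, the glycyl-tRNA synthetase, was at 279.5 and 280 CPM with DMSO and 836 and 918 CPM with CCF642 (1.78) and CARS, the cysteinyl-tRNA synthetase, at 95.7 and 101 CPM with DMSO and 287 and 292 CPM with CCF642 (1.68). The list fell into 2 parts, since QARS, RARS, KARS, DARS and FARSA passed in neither direction and FARSB was lower at 144 and 148 CPM with DMSO and 112 and 115 CPM with CCF642 (−0.23). Of 19 genes of amino acid synthesis and one-carbon metabolism, 13 were higher, 10 of them at least 2-fold, and 3 were lower (median 1.20). CTH led this list, followed by PSAT1 of serine synthesis at 82.6 and 83.9 CPM with DMSO and 423 and 414 CPM with CCF642 (2.45). ALDH18A1, the first enzyme of proline synthesis, was at 103 and 109 CPM with DMSO and 65.4 and 68.2 CPM with CCF642 (−0.52) and the cytosolic folate enzyme MTHFD1 at 96.6 and 93.6 CPM with DMSO and 61.9 and 62.2 CPM with CCF642 (−0.48), both lower, whereas MTHFD2, its mitochondrial counterpart, was at 286 and 284 CPM with DMSO and 752 and 779 CPM with CCF642 (1.55). Of 15 amino acid transporters, 10 were higher and 4 lower (median 0.89), with the glycine carrier SLC6A9 at 17 and 19 CPM with DMSO and 106 and 105 CPM with CCF642 (2.62) and SLC3A2, the heavy chain that partners SLC7A11, at 386 and 397 CPM with DMSO and 1829 and 1694 CPM with CCF642 (2.30). SLC36A1, a carrier of the lysosomal membrane, was lower at 16.9 and 16.3 CPM with DMSO and 9.97 and 9.34 CPM with CCF642 (−0.60).

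Energy metabolism was mostly lower by small amounts. Of 24 genes of glycolysis and the pentose phosphate pathway, 14 were lower and 5 higher (17 and 2 with library size alone), with a median of −0.24, and with LDHA, which makes lactate, at 1121 and 1108 CPM with DMSO and 653 and 652 CPM with CCF642 (−0.64) and PGAM1 at 337 and 325 CPM with DMSO and 197 and 202 CPM with CCF642 (−0.59). PFKFB3, which makes an activator of glycolysis, was the exception in size at 20 and 19.8 CPM with DMSO and 39.1 and 40.4 CPM with CCF642 (1.09). TKT of the pentose phosphate pathway was also higher at 472 and 464 CPM with DMSO and 526 and 559.5 CPM with CCF642 (0.35), and GAPDH (0.09), TALDO1 (0.17) and PGD (0.16) were higher only by about the shift between the scalings. Of 29 nuclear genes of the respiratory chain, 16 were lower and 2 higher (27 and 0 with library size alone), with a median of −0.15, and with the complex I subunits NDUFC2 at 8.74 and 9.2 CPM with DMSO and 4.86 and 3.36 CPM with CCF642 (−0.86) and NDUFB3 at 52.3 and 51 CPM with DMSO and 31 and 23.8 CPM with CCF642 (−0.77). Of 28 genes of sterol and fatty acid synthesis, 12 were higher and 8 lower (9 and 10 with library size alone). With TMM these are 42.9% and 28.6%, against 31.8% and 31.3% of all genes. HMGCS1, an early enzyme of cholesterol synthesis, was higher at 62.2 and 65.6 CPM with DMSO and 115 and 118 CPM with CCF642 (0.99), and the fatty acid enzymes ELOVL6 and SCD were lower at 11.1 and 10.6 CPM with DMSO and 4.76 and 5.4 CPM with CCF642 (−0.85) and at 495 and 489 CPM with DMSO and 319 and 336 CPM with CCF642 (−0.45). The sign of this list's median turned with the scaling, from 0.105 to −0.013 with library size alone.

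Proteasome, ubiquitin and autophagy genes were mostly higher, by less than 2-fold for the proteasome, whereas lysosomal genes were divided. Of 32 proteasome genes, 24 were higher and 1 lower (18 and 4 with library size alone), with a median of 0.27, and with PSMD12 at 80.2 and 80.1 CPM with DMSO and 133 and 129.5 CPM with CCF642 (0.84) and PSMC4 at 119.7 and 133 CPM with DMSO and 191 and 191 CPM with CCF642 (0.73), both parts of the 19S cap, and PSMA2 at 149.6 and 139.7 CPM with DMSO and 124 and 108 CPM with CCF642 (−0.18). NFE2L1, which drives these genes when proteasomes are short, is in the list of ER sensors and was at 404 and 402 CPM with DMSO and 856 and 801 CPM with CCF642 (1.17). Of 16 ubiquitin genes and VCP cofactors, 11 were higher and 4 lower (8 and 5 with library size alone). UBB was at 429.9 and 429.9 CPM with DMSO and 714 and 734 CPM with CCF642 (0.88), and UBE2C, the ubiquitin-conjugating enzyme of the anaphase-promoting complex, was lower at 89 and 89.8 CPM with DMSO and 35.6 and 36 CPM with CCF642 (−1.16). Of 24 autophagy genes, 17 were higher and 0 lower (13 and 1 with library size alone), with a median of 0.34, and with the ATG8 family gene GABARAPL1 at 40.1 and 40.5 CPM with DMSO and 163 and 149.8 CPM with CCF642 (2.06). Of 23 lysosomal genes, 9 were higher and 10 lower (5 and 13 with library size alone). With TMM these are 39.1% and 43.5%, against 31.8% and 31.3% of all genes. GLA, an alpha-galactosidase, was at 59.3 and 60.3 CPM with DMSO and 134 and 127 CPM with CCF642 (1.24). CTSA, a protective carboxypeptidase, was at 179 and 180.3 CPM with DMSO and 112 and 115 CPM with CCF642 (−0.52).

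In the secretory pathway, most genes of the vesicle coats were higher, and genes of the translocation machinery went both ways by smaller amounts. Of 25 genes of COPII and COPI vesicles and their cargo receptors, 20 were higher and 4 lower (median 0.63). SEC24D and SEC24A, which select cargo at ER exit sites, were at 194 and 185 CPM with DMSO and 501 and 526 CPM with CCF642 (1.57) and at 145 and 144 CPM with DMSO and 312 and 311 CPM with CCF642 (1.24), while the COPI isoform COPG2 was at 13.1 and 11.6 CPM with DMSO and 6.86 and 8.37 CPM with CCF642 (−0.52). Of 27 genes of the translocon, signal peptidase and oligosaccharyltransferase, 13 were higher and 6 lower with TMM and 9 higher and 13 lower with library size alone, with SRP68 at 169 and 173 CPM with DMSO and 232 and 225 CPM with CCF642 (0.55), SRP54 at 86.1 and 83.8 CPM with DMSO and 111 and 112 CPM with CCF642 (0.52) and the signal peptidase subunit SPCS1 at 269.6 and 278 CPM with DMSO and 190.3 and 173 CPM with CCF642 (−0.46). The median of the latter list was 0.021 and turned to −0.109 with library size alone.

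Most plasma cell genes were lower, and the transcription factors among them were found on both sides. Of 19 plasma cell genes, 14 were lower and 4 higher (median −0.34), 5 of them at least 2-fold lower. TNFRSF17 (BCMA), a receptor targeted in myeloma treatment, was at 169.8 and 162 CPM with DMSO and 72.7 and 71.2 CPM with CCF642 (−1.06), and MAF, the transcription factor that drives a subset of myelomas, was at 1379 and 1421 CPM with DMSO and 509 and 501 CPM with CCF642 (−1.34). MZB1, an ER protein of antibody secretion, was at 854 and 867 CPM with DMSO and 689.9 and 606 CPM with CCF642 (−0.28), POU2AF1, a coactivator of immunoglobulin genes, at 619 and 583 CPM with DMSO and 435 and 425 CPM with CCF642 (−0.35) and CD38 at 38.1 and 36.8 CPM with DMSO and 27.5 and 30.7 CPM with CCF642 (−0.23). The genes that were higher include IRF4, on which myeloma cells depend, at 682 and 657 CPM with DMSO and 1127 and 1147 CPM with CCF642 (0.90), the receptor TNFRSF13B (TACI) at 204 and 207 CPM with DMSO and 284 and 259 CPM with CCF642 (0.53), PRDM1 (BLIMP-1) at 404 and 402 CPM with DMSO and 447 and 471 CPM with CCF642 (0.32) and SLAMF7 at 677 and 672 CPM with DMSO and 800.4 and 787 CPM with CCF642 (0.37). XBP1, which drives the secretory apparatus, was at 1368 and 1358 CPM with DMSO and 1391 and 1389 CPM with CCF642 (0.16), a difference close to the shift between the scalings. Its spliced form is not told apart in these values. Of the 3 listed B cell markers, CD79B (−0.24) and BLK (−0.57) were lower, and the CPM of all 3 summed to 66.38 and 68.31 with DMSO and to 51.15 and 51.83 with CCF642.

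Genes of chromatin and transcription were higher more often than lower, and those of splicing were divided with library size alone. Of 27 histone lysine methyltransferases and demethylases, 17 were higher and 5 lower (median 0.29), with the H3K27 demethylase KDM6B at 9.48 and 11.1 CPM with DMSO and 46.4 and 45.4 CPM with CCF642 (2.18), KDM4A at 59.9 and 62.7 CPM with DMSO and 93.2 and 98.6 CPM with CCF642 (0.77) and the H3K4 demethylase KDM1A at 72.8 and 69.3 CPM with DMSO and 42.2 and 44.4 CPM with CCF642 (−0.57). Of 24 Mediator, CDK9 and BET genes, which act in transcription by RNA polymerase II, 17 were higher and 2 lower (median 0.34), with CDK7 at 21.8 and 22.1 CPM with DMSO and 35.1 and 37 CPM with CCF642 (0.82) and MED17 at 56.1 and 56.1 CPM with DMSO and 86.3 and 87.8 CPM with CCF642 (0.76). Of 11 listed histone genes, 6 were higher and 4 lower (median 0.79, and 0.68 with library size alone). The replacement histone H3F3B was at 400.3 and 395 CPM with DMSO and 995 and 913 CPM with CCF642 (1.39) and HIST1H1C at 20.5 and 23.5 CPM with DMSO and 44.4 and 40.7 CPM with CCF642 (1.05), but H2AFV, a variant of H2A, was lower at 239.8 and 249 CPM with DMSO and 165 and 155 CPM with CCF642 (−0.48). Of 26 SR proteins, hnRNPs and CLK kinases, 13 were higher and 9 lower (9 and 9 with library size alone), with the splicing kinase CLK1 at 229 and 228 CPM with DMSO and 546 and 545 CPM with CCF642 (1.39) and the splicing factors SRSF2 and SRSF1 at 311 and 299 CPM with DMSO and 179 and 177 CPM with CCF642 (−0.64) and at 426 and 429 CPM with DMSO and 273 and 272 CPM with CCF642 (−0.52). The sign of this list's median turned from 0.096 to −0.037 with library size alone. Of 21 genes of the actin and microtubule cytoskeleton, 10 were lower and 6 higher (14 and 5 with library size alone), and the tubulin TUBB2A was at 4.48 and 3.46 CPM with DMSO and 12.6 and 15.2 CPM with CCF642 (1.70) against the lower actins given above. Of 20 long noncoding genes written, 2 were listed and both were higher. MIR22HG, the host of a microRNA, was at 6.35 and 6.78 CPM with DMSO and 53.9 and 48.1 CPM with CCF642 (2.90), and EPB41L4A-AS1 was at 17.2 and 15.8 CPM with DMSO and 28.4 and 23.7 CPM with CCF642 (0.75).

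The 30 genes named above by abundance tier were also compared directly between CCF642 and CCF642-34, at the same dose and time. Over all genes, this difference passed a limma adjusted p of 0.05 for 1758 genes that were higher with the analog (15.9%) and for 1930 that were lower (17.5%). Of the 30 genes 24 differed, each with the level nearer to DMSO with CCF642-34. This does not hold for all genes named in this report, which were not counted here. HMOX1 was farther from DMSO with CCF642-34, with a difference of 1.47 (limma adjusted p = 3.92e-31), and IRF4 was farther by 0.21, while others were nearer. OASL, at 0.457 and 0.72 CPM with CCF642-34, had a difference of −2.54 on the log2 scale, and that of NR4A3, at 62 and 60.8 CPM, was −2.22 (limma adjusted p = 9.94e-29). These 2 genes were far higher with CCF642 than with its analog. OASL reached the 1.5 CPM that each listed gene has in some library only with CCF642, so its difference was favoured by the listing. TSC22D3, at 1684 and 1723 CPM, differed by −0.21 (limma adjusted p = 1.08e-05), a much smaller step. The 6 genes that did not pass were MSC (difference −0.04, 95% interval −0.40 to 0.32), WWTR1 (0.19, −0.13 to 0.52), CCR2 (−0.18, −0.50 to 0.13), ADM2 (−0.19, −0.35 to −0.03), TMCC2 (0.19, 0.01 to 0.37) and FAM83D (0.17, −0.05 to 0.39). The intervals are not adjusted for the number of genes, so those of ADM2 and TMCC2 can exclude no difference although their adjusted p did not pass. The 30 genes were picked for large changes with CCF642, which by itself favours values nearer to DMSO in another group.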

How the data were processed

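Polyadenylated RNA of MM1.S cells was captured with oligo(dT) beads, and random hexamers primed the cDNA. The labels' processing notes name STAR, edgeR 3.24.3, limma 3.38.3 and the build hg19, with no order. The counting tool, annotation and strandedness are not given in the sources used here, so overlapping and antisense genes cannot be told apart. For each library the authors deposited CPM values, not log-transformed, for 11048 gene symbols. The unit was read from the values, which sum to nearly the same total in each library, and each gene reaches at least 1.5 CPM in some library. All values (100%) of the 4 DMSO and CCF642 libraries were whole reads within 0.02 reads. The labels name no molecular identifiers, so reads do not count independent molecules, and any precision taken from them covers counting error only.

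CPM were scaled by TMM factors (edgeR 4.0.16), 1 was added and log2 values were fitted with limma 3.58.1 (R 4.3.3), with the 3 groups together and no replicate block. The fit had 3 residual degrees of freedom and a prior of 42.9. Tests were two-sided, with Benjamini-Hochberg adjustment over all genes, and the pipeline was tested on simulated data. Alternatives were library size alone, DESeq2 size factors, pseudocounts of 0.1 and 4, a mean CPM of at least 5, fits of the 4 libraries alone, a replicate block, a gene-wise linear model, fits without each library and, on recovered reads, edgeR's quasi-likelihood test, DESeq2 1.42.0 and limma-voom. Same-numbered libraries did not deviate together (correlation −0.047 between DMSO and CCF642), so the numbers were not taken to pair them.

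The comparison and the 51 hand-written gene lists were chosen with earlier results of these data known. Of 1036 different genes written, 930 were listed. None of the 13 mitochondrially encoded genes was listed under the symbols written. By rule, the text names the 5 largest increases and decreases per abundance tier outside the ER stress lists, among genes whose groups did not overlap. It also names the 2 largest per list and direction, the 5 largest gains and losses of mean CPM, P4HB and plasma cell markers. Each increase or decrease named per tier or list had a limma adjusted p under 0.05. AURKA, AURKB, CCNF, CDC20, CDT1, CENPA, CHORDC1, EGR1, FOS, FOSL2, GAPDH, HSPA6, JUN, MAFF, MCL1, MCM2, MCM6, MT2A, MTHFD2, NFE2L2, NFKBIA, PGD, SERPINH1, SLC3A2, TALDO1, TNFAIP3 and the members named as passing in neither direction were chosen after their values were seen. A few genes that the rule names are not reported here. Symbols of promoters came from RefSeq on GRCh38.p14. The deposited files hold no coordinates.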

Additional observations from a re-analysis of the deposited data

How the results depend on the processing

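The counts of genes at an adjusted p under 0.05 and the 497 genes at least 2-fold higher stayed within 1.5 times their value under every alternative run, but the 220 genes at least 2-fold lower did not. These were 348 with library size alone, 373 with a pseudocount of 0.1, 107 with a pseudocount of 4, 380 with edgeR's quasi-likelihood test, 360 with DESeq2 and 392 with limma-voom on recovered reads. The cause was not tested. Of the 220 genes, 220 were also called with edgeR and 107 with a pseudocount of 4. Without each library in turn, 488 to 506 genes were at least 2-fold higher and 232 to 255 lower, and 3071 to 3367 were higher and 2935 to 3290 lower at an adjusted p under 0.05. The gene-wise linear model, with its few degrees of freedom, called 5022 genes at an adjusted p under 0.05. Of 202 named genes checked, P4HB (−0.035) and UQCRC2 (−0.017) turned sign with library size alone, and 179 kept their call in the gene-wise model. With edgeR 201 kept it, and without DMSO replicate 1, the library whose absence cost most calls, 190 did.

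With the replicate block, 3529 genes were higher and 3482 lower at an adjusted p under 0.05, and 497 and 220 at least 2-fold, and the block changed no call of the 202 genes. The pairing check gave correlations of −0.047, −0.077 and 0.111 between same-numbered libraries over 9390 genes. Depth limits the low tier, where 3 reads are 0.1305 to 0.1459 CPM.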
